A study of Arabidopsis thaliana with 6 samples.

Results

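The 9 genes described here belong to the rapid stress response: the C2H2 zinc finger genes ZAT10 (AT1G27730) and ZAT6 (AT5G04340), the tandem CCCH zinc finger genes SZF1 (AT3G55980) and CZF1 (AT2G40140), the deadenylase genes CAF1a (AT3G44260) and CAF1b (AT5G22250), BAP1 (AT3G61190), DIC2 (AT4G24570) and MYB15 (AT3G23250). They were taken by locus identifier, and all 9 were found among the 33557 loci of the deposited table. The quadruple mutant camta1/2/3/sid2 was compared with wild-type Arabidopsis thaliana, both in the Col-0 accession. Each genotype was represented by 3 libraries of the whole aerial part at 21 days, from plants kept on soil at 22 °C with 12 h of light at 100 to 120 µmol/m2/s and harvested at zeitgeber time 12. The labels name neither the alleles nor whether a library pools plants. The table gives 1 FPKM value (fragments scaled to transcript length and library size) per genotype, combined by the authors. No difference below therefore has a replicate check, and no p-value, error or replicate spread can be given.

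Plants answer wounding, cold, salt, touch and microbes within minutes by a shared burst of transcription that calcium signals set off. Many genes of this burst carry the rapid stress response element CGCGTT, a form of the CGCG box that the calmodulin-binding CAMTA factors recognise. The burst holds regulators of transcription, such as the zinc finger repressors ZAT10 and ZAT6, and regulators of messenger RNA life span, such as CAF1a and CAF1b, which shorten poly(A) tails as catalytic subunits of the CCR4-NOT complex. SID2 (ICS1) supplies most of the salicylic acid that plants make on infection.

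All 4 targeted transcripts (CAMTA1, CAMTA2, CAMTA3 and ICS1/SID2) were lower in the mutant, between 1.22-fold for ICS1/SID2 and 4.13-fold for CAMTA1 in FPKM. Above 0 FPKM in both genotypes stood 7 of 7 shoot markers, summing to 24553 in the mutant and 23162 in the wild type. Single shoot markers differed more than their sum: RBCS2B was 1.64-fold and RCA 1.61-fold higher in the mutant, and LHCB1.3 was 1.51-fold and STM 1.97-fold lower. Their part in the results below was not tested. Of 6 root markers, 4 were above 0, summing to 57.7 in the mutant and 52.9 in the wild type, nearly all of it PYK10, while EXPA7 and IRT1 were listed at 0 in both. Because the RNA came from whole shoots, a lower value may reflect fewer cells of a type or less RNA per cell, which cannot be told apart.

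At the end of the light period in warm-grown plants the 9 genes stood at low to middling levels, with plain FPKM ratios between 1.91-fold higher (BAP1) and 2.42-fold lower (DIC2) in the mutant. Their FPKM ranged between 0.159 and 11.0 in the mutant, with a median of 4.25, and between 0.351 and 9.04 in the wild type, with a median of 3.66. Of the 9 genes, 6 were higher and 3 lower in the mutant. On the scale of log2(FPKM + 1), on which mutant minus wild type is called the log2 ratio here, the median of the 9 was 0.26, against -0.06 over the 18547 loci with at least 1 FPKM in at least 1 genotype (the analysed loci). Of those loci, 35.4% were higher and 64.6% lower in the mutant. None of the 9 reached a 2-fold difference on this scale in either direction, a threshold that 0.787% of analysed loci passed upward and 0.69% downward. At 1.5-fold on the same scale, a threshold added after the values were seen, ZAT10 and ZAT6 were higher and DIC2 lower. Of analysed loci, 1.81% passed it upward and 1.99% downward. In plain FPKM, BAP1 (1.91-fold) also passed 1.5-fold upward, and CAF1a (1.55-fold) and MYB15 (2.22-fold) passed it downward. The share of all loci at that plain ratio was not counted. With 9 genes picked with earlier results of these data known, these counts describe the genes and test nothing.

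**Figure D1:**
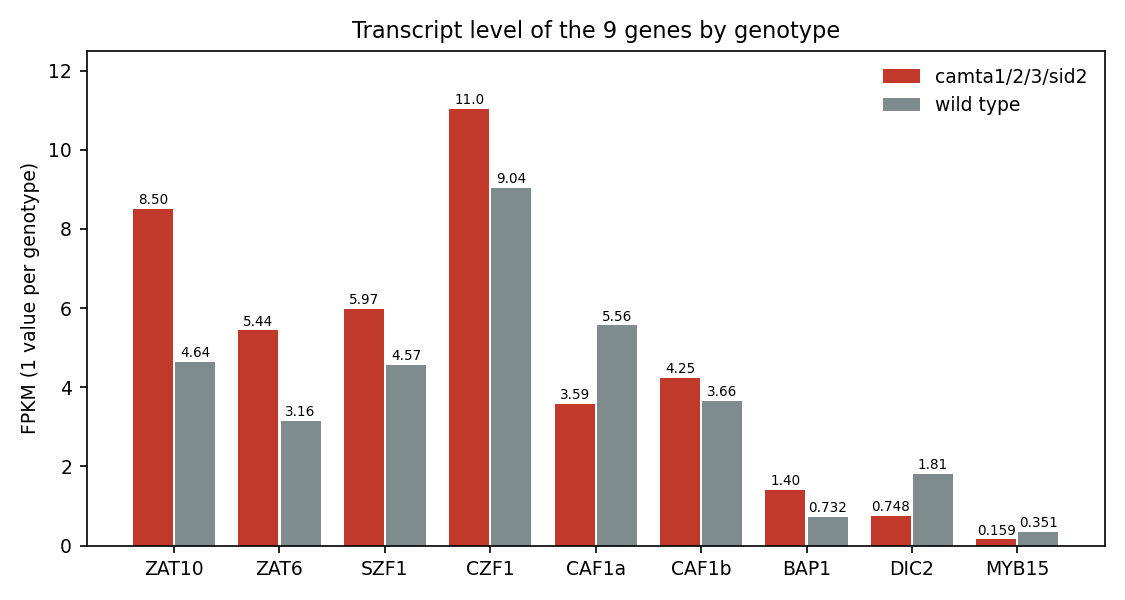
FPKM of the 9 genes (vertical axis, linear from 0) in camta1/2/3/sid2 (red, left bar) and wild type (grey, right bar), 1 authors' value per bar and therefore no error bars. The 4 zinc finger genes, CAF1b and BAP1 have the higher bar in the mutant, and CAF1a, DIC2 and MYB15 have the lower one.

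Filtering on low values left 8 of the 9 genes. BAP1 passed only through its mutant value and DIC2 only through its wild-type value, so a difference in that direction was built into their passing. MYB15 was under 1 FPKM in both genotypes. The spread of the log2 ratio was wider among weakly expressed loci. Among 2922 analysed loci with a mean FPKM under 3 the 5th and 95th percentiles were -0.49 and 0.51, and among 5602 loci between 3 and 10 FPKM they were -0.37 and 0.28. ZAT10, ZAT6 and SZF1 lay above and CAF1a below the range of their own level band, and CAF1b lay inside it. CZF1 lay inside the band above 10 FPKM, whose 95th percentile was 0.32. DIC2 lay below the band of the weakly expressed loci and BAP1 lay inside that band.

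**Figure D2:**
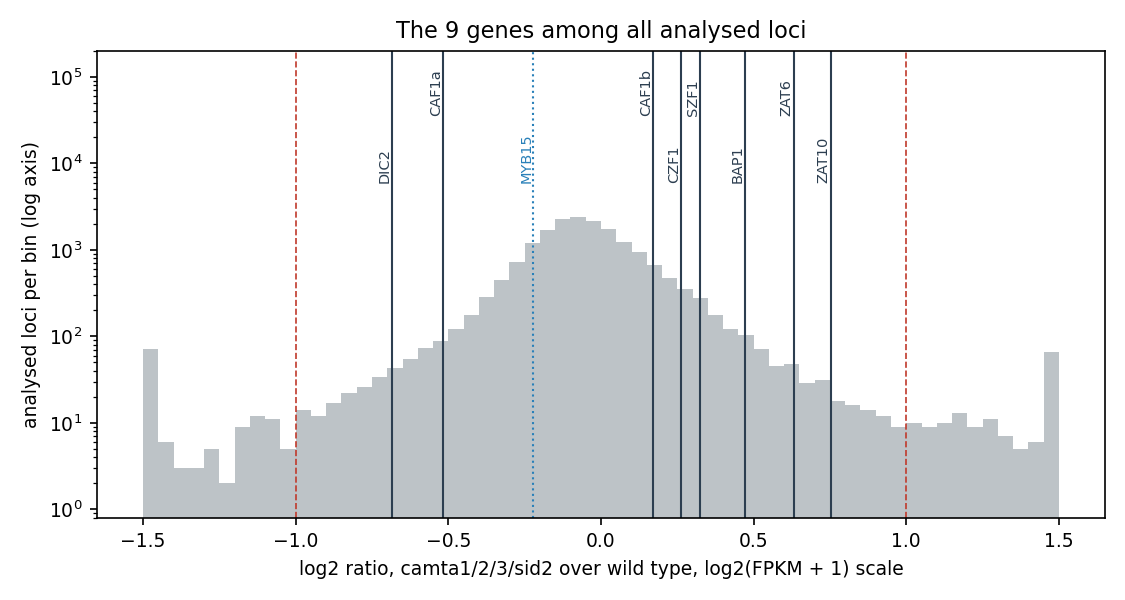
Distribution of the log2 ratio (horizontal axis, camta1/2/3/sid2 over wild type, log2(FPKM + 1) scale) over 18547 analysed loci (grey, counts per bin on a log axis, values beyond 1.5 gathered in the end bins), with the 9 genes as vertical lines and 2-fold differences as red dashes. MYB15, dotted, is under the filter. ZAT10 at 0.75 and DIC2 at -0.69 mark the ends of the 9, inside the 2-fold lines.

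The zinc finger repressors ZAT10 and ZAT6 had the highest log2 ratios of the set with the pseudocount of 1, whereas with 0.1 BAP1 (0.85) lay between ZAT10 (0.86) and ZAT6 (0.77). ZAT10, also called STZ, encodes a C2H2 repressor induced by salt, drought, cold and excess light. It had 8.50 FPKM in camta1/2/3/sid2 and 4.64 FPKM in the wild type, a 1.83-fold higher value and a log2 ratio of 0.75, exceeded by 1.15% of analysed loci. ZAT6, a related C2H2 factor of cold, metal and phosphate responses, had 5.44 FPKM in the mutant and 3.16 in the wild type. This was 1.72-fold higher, with a log2 ratio of 0.63, and 1.59% of analysed loci exceeded it. By level, ZAT10 had rank 2 of the 9 in the mutant and rank 3 in the wild type, and ZAT6 had rank 4 in the mutant and rank 6 in the wild type. Both genes have a single exon and transcripts of near-equal length, 1303 and 1305 bases, in the RefSeq annotation of TAIR10.1.

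The 300 bases upstream of both genes are shown because they hold the DRE core, the letters bound by the cold-regulatory CBF factors, which was searched for after the windows had been read. The windows are chr1:9649324-9649623 (minus strand) for ZAT10 and chr5:1217363-1217662 (minus strand) for ZAT6 in TAIR10.1, written 5′ to 3′ on the gene's strand, ending at the base before the annotated start, with the DRE core in capitals.
ZAT10: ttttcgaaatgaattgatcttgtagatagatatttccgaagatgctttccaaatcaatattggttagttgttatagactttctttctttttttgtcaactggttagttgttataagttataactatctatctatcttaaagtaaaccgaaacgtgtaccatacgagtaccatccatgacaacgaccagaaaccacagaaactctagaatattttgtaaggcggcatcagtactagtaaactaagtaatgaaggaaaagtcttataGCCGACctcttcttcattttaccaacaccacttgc
ZAT6: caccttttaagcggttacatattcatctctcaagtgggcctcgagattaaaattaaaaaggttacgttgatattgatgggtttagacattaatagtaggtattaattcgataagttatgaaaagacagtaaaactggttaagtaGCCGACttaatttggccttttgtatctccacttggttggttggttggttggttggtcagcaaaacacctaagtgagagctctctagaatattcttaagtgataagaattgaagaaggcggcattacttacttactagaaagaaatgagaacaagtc
The match lies at positions -35 to -30 of ZAT10 and -156 to -151 of ZAT6, counted from -1 at the base before the start. ACCGAC or GCCGAC, on either strand, is present in 8.24% of the 27438 upstream windows of nuclear protein-coding genes and in no other window of the 9. Neither window holds CGCG, and the longest run the pair shares is the 12 bases ctctagaatatt. Of the CBF genes, which MYB15 is known to repress, CBF3 (AT4G25480) had 5.18 FPKM in the mutant and 8.55 in the wild type. CBF1 (AT4G25490), at 0.233 in the mutant and 0.493 in the wild type, and CBF2 (AT4G25470), at 0.138 and 0.133 FPKM in the same order, were under the filter.

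The other C2H2 genes of this family lay on both sides of 0. Of 14 listed ZAT and AZF genes 8 were analysed. Of the 6 other than ZAT10 and ZAT6, 2 were higher and 4 lower, with a median log2 ratio of -0.17. Over all analysed loci 35.4% were higher and 64.6% lower, a similar split, with a median of -0.06. ZAT12 (AT5G59820), a regulator of oxidative and high light responses, had 1.53 FPKM in the mutant and 1.14 in the wild type. ZAT5 (AT2G28200) had 1.98 FPKM in the mutant and 1.58 in the wild type. These 2 were the higher ones. AZF1 (AT5G67450), a repressor of salt and abscisic acid responses, had 0.576 FPKM in the mutant and 1.45 in the wild type, the lowest log2 ratio of the family at -0.64. AZF2 (AT3G19580) had 2.33 FPKM in the mutant and 3.10 in the wild type, and AZF3 (AT5G43170) had 2.53 and 3.04 FPKM in that order. ZAT11 (AT2G37430) stayed under the filter, at 0.675 FPKM in the mutant and 0.160 in the wild type. ZAT10 and ZAT6 together made up 54.6% of the summed FPKM of the 14 genes in the mutant and 37.5% in the wild type.

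SZF1 and CZF1, paired CCCH zinc finger proteins with ankyrin repeats that act together in salt stress, were both slightly higher in the mutant. SZF1 had 5.97 FPKM in camta1/2/3/sid2 and 4.57 FPKM in the wild type, 1.31-fold higher, with a log2 ratio of 0.32. CZF1, also called SZF2, was the most abundant of the 9 in both genotypes, at 11.0 FPKM in the mutant and 9.04 in the wild type. It was 1.22-fold higher, with a log2 ratio of 0.26. Of the analysed loci, 5.24% had a higher log2 ratio than SZF1 and 7.39% a higher one than CZF1, so both lay nearer the bulk than ZAT10 and ZAT6. Their coding sequences were 65.3% identical over 2047 aligned columns. The longest identical stretch, 36 bases starting at coding base 846 of SZF1 and 654 of CZF1, is printed because reads inside it cannot be assigned to one gene. The sources used here do not give how such reads were divided.
SZF1 and CZF1 shared stretch: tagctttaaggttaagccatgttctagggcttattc

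Directly upstream the pair shares a further stretch, printed with the W-box, the element read by WRKY factors (TTGACC or TTGACT, either strand), in capitals. The 100 bases before the start are chr3:20776120-20776219 (plus strand) for SZF1 and chr2:16771897-16771996 (plus strand) for CZF1 in TAIR10.1.
SZF1: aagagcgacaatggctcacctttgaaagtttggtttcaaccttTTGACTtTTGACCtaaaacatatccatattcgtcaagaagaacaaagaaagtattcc
CZF1: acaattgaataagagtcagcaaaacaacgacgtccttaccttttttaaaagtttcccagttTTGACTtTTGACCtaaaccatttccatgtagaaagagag
Each holds 2 W-boxes separated by a single T, inside 19 shared bases (ttttgacttttgacctaaa). The doubled form TTGACTTTTGACC, on either strand, was present in 7 of the 27438 windows of 300 bases, or 0.0255%, and SZF1 and CZF1 are 2 of those 7. A single W-box is common, at 32.3% of windows, and among the 9 genes DIC2 and MYB15 also have one. The doubled form was searched for after the windows had been read, so its rarity describes these sequences and tests nothing.

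The remaining tandem CCCH genes were mostly a little lower, and 64.6% of all analysed loci were lower. Of the family of 11, 8 were analysed, and of the 6 other than SZF1 and CZF1, TZF7 (AT2G41900) was higher, at 32.4 FPKM in the mutant and 30.4 in the wild type, and 5 were lower. TZF1 (AT2G25900), which shuttles between the nucleus and cytoplasmic granules, had 9.56 FPKM in the mutant and 12.8 in the wild type. TZF2 (AT2G19810) and TZF3 (AT4G29190), linked to oxidative and abscisic acid responses, lay at 11.7 and 14.2 FPKM in the mutant. In the wild type TZF2 had 13.4 and TZF3 16.2 FPKM. TZF8 (AT5G12850) had 23.3 FPKM in the mutant and 26.6 in the wild type, and TZF9 (AT5G58620), a factor of pattern-triggered immunity, had 3.88 and 4.58 FPKM in that order. The median log2 ratio of the 6 analysed genes other than SZF1 and CZF1 was -0.18, against -0.06 over all analysed loci. TZF4, TZF5 and TZF6 were under 1 FPKM in both genotypes.

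The deadenylases CAF1a and CAF1b, the stress-inducible pair of their family, stood on opposite sides. CAF1a had 3.59 FPKM in camta1/2/3/sid2 and 5.56 FPKM in the wild type, 1.55-fold lower. Its log2 ratio of -0.52 was above that of only 2.61% of analysed loci. CAF1b had 4.25 FPKM in the mutant and 3.66 in the wild type, 1.16-fold higher, with a log2 ratio of 0.17. CAF1a was therefore the more abundant of the pair in the wild type and CAF1b in the mutant. Summed, the pair came to 7.83 FPKM in the mutant and 9.22 in the wild type. Their coding sequences were 79.1% identical, the closest of the 3 pairs compared, and the longest identical stretch was 32 bases. It starts at coding base 697 of CAF1a and 691 of CAF1b, and is printed because reads inside it cannot tell apart 2 copies that differ in direction.
CAF1a and CAF1b shared stretch: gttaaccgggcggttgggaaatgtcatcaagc

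The rest of the analysed CAF1 family differed by at most 1.42-fold in plain FPKM, the value of AT1G06450. All 6 other analysed CAF1 homologues were lower in the mutant as deposited, as were 64.6% of all analysed loci. Of these 6 homologues, 1 was higher once the median over analysed loci was set to 0. The most abundant, AT1G80780, had 98.3 FPKM in the mutant and 105.8 in the wild type. AT5G10960 had 76.8 FPKM in the mutant and 84.5 in the wild type, and AT2G32070 had 31.1 and 35.3 in that order. Weaker members were AT1G15920, at 9.56 FPKM in the mutant and 9.85 in the wild type, AT1G06450, at 2.77 and 3.93, and AT1G61470, at 1.15 and 1.57. The log2 ratio of AT1G06450 was -0.39, below the 5th percentile of -0.37 among loci with a mean of 3 to 10 FPKM. AT1G27820 and AT1G27890 were under 0.1 FPKM in both genotypes and AT3G44240 was listed at 0 in both. CAF1a and CAF1b made up 3.44% of the summed FPKM of the 11 homologues in the mutant and 3.68% in the wild type.

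Of 12 other subunits and related deadenylases, 11 were analysed and 11 were lower as deposited, with a median log2 ratio of -0.14. With the median over loci set to 0, 2 of the 11 were higher. As deposited, 64.6% of all analysed loci were lower. The scaffold NOT1 (AT1G02080) had 20.3 FPKM in the mutant and 23.2 in the wild type, and NOT2a (AT1G07705) had 10.9 and 13.9 in that order, the lowest log2 ratio of the list at -0.32. CCR4b (AT3G58580), the second catalytic type of the complex, had 13.9 FPKM in the mutant and 16.3 in the wild type. NOT9A (AT3G20800) had 45.3 FPKM in the mutant and 53.6 in the wild type. Decapping, P-body and poly(A)-binding genes, the steps after and around deadenylation, had a median of -0.02 over 13 analysed genes, 4 higher and 9 lower, or 7 higher and 6 lower with the median over loci set to 0. Their lowest log2 ratio, -0.23, was that of the helicase gene RH8 (AT4G00660), at 22.7 FPKM in the mutant and 26.8 in the wild type.

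BAP1, a C2-domain phospholipid-binding protein that restrains cell death together with the copine BON1, was low but higher in the mutant. It had 1.4 FPKM in camta1/2/3/sid2 and 0.732 FPKM in the wild type, the largest plain fold of the higher genes at 1.91. Its log2 ratio was 0.47, or 0.85 with a pseudocount of 0.1, and 2.69% of analysed loci exceeded the value of 0.47. BAP1 passed the filter only through its mutant value, so the direction was built into its being ranked. BON1 (AT5G61900), its partner, had 9.30 FPKM in the mutant and 7.35 in the wild type. BAP2 (AT2G45760), the close relative of BAP1, was under the filter, with 0.712 FPKM in the mutant and 0.541 in the wild type. Of the other copines, BON2 (AT5G07300) had 19.1 FPKM in the mutant and 21.9 in the wild type, and BON3 (AT1G08860) had 0.0257 and 0.118 FPKM in that order.

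DIC2, a carrier of dicarboxylates across the inner mitochondrial membrane, had the lowest log2 ratio of the set. It had 0.748 FPKM in camta1/2/3/sid2 and 1.81 FPKM in the wild type, 2.42-fold lower, with a log2 ratio of -0.69. Of analysed loci, 1.43% had a lower one, but DIC2 passed the filter only through its wild-type value, which built in this direction. At these levels the pseudocount matters: with 0.1 in place of 1, the log2 ratio of DIC2 was -1.17, past 2-fold. DIC1 (AT2G22500), the abundant relative, had 15.3 FPKM in the mutant and 20.6 in the wild type, a log2 ratio of -0.41. DIC3 (AT5G09470) had 2.26 FPKM in the mutant and 2.08 in the wild type. The uncoupling protein genes PUMP1 (AT3G54110), at 46.4 FPKM in the mutant and 47.8 in the wild type, and PUMP2 (AT5G58970), at 13.9 and 14.3, differed less.

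Of the 9 genes, 1 (DIC2) had CGCG in its 300 upstream bases, near the share of 11.8% over all windows. The DIC2 window is printed, chr4:12686159-12686458 (plus strand) in TAIR10.1, with the CGCG matches and their flanking motif letters in capitals.
DIC2: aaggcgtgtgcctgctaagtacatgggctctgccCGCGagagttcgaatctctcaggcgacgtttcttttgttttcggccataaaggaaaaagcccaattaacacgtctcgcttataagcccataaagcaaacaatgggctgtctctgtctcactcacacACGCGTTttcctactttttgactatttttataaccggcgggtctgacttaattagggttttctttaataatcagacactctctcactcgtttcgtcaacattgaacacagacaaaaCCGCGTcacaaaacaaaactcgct
The window has 3 matches to CGCG, on either strand since the letters read the same on both. The match at -139 to -134 reads CGCGTT, the rapid stress response element, and overlaps a CGCG box (ACGCGT) at -140 to -135. A further CGCG box, CCGCGT, lies at -24 to -19. The CGCG box was searched as A, C or G, then CGCG, then C, G or T, on both strands. The match at -266 to -263 lies inside the annotated tRNA gene AT4G24565, which spans -320 to -239 and is listed at 0 FPKM in both genotypes. Across all 27438 windows, CGCG was present in 11.8%, the CGCG box in 7.18% and CGCGTT (or AACGCG) in 3.08%. In windows of 1000 bases CGCG was present upstream of 5 of the 9 genes (ZAT10, SZF1, CAF1a, BAP1 and DIC2) and of 32.2% of all genes. The CGCG box was present there upstream of 4 of the 9 (ZAT10, SZF1, BAP1 and DIC2) and of 18.9% of all genes. CGCGTT was then present upstream of SZF1, BAP1 and DIC2, and of 8.66% of all genes. The 5 genes with CGCG in the longer window lay on both sides, with ZAT10, SZF1 and BAP1 higher in the mutant and CAF1a and DIC2 lower. The G-box CACGTG was in none of the 9 short windows and in 7.09% of all.

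**Figure D3:**
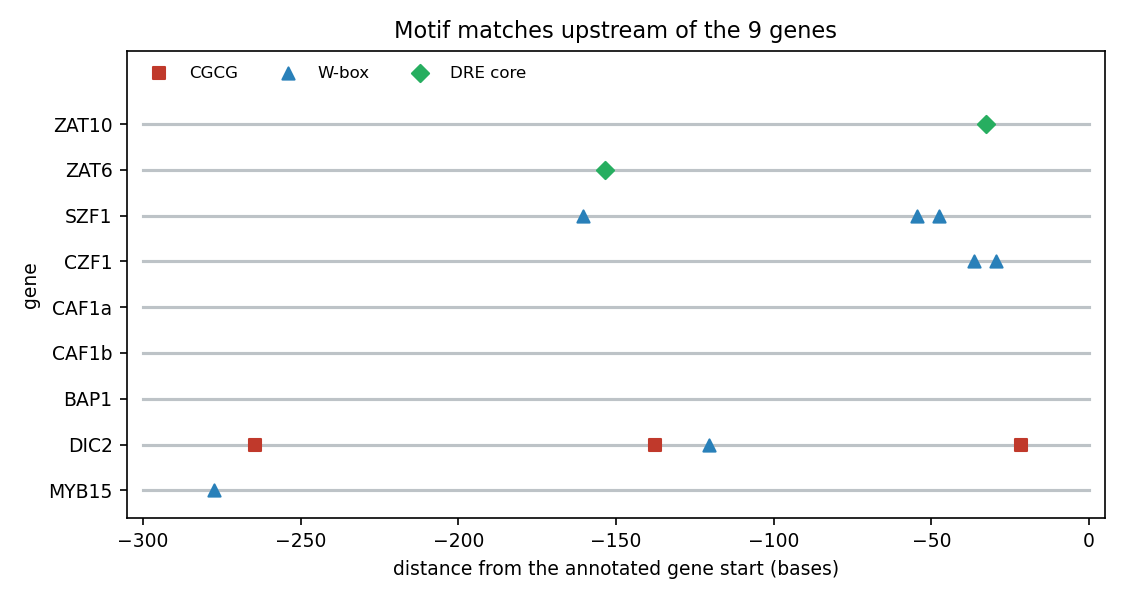
Matches to CGCG (squares), the W-box (triangles) and the DRE core (diamonds) in the 300 bases upstream of the 9 genes (rows), by distance from the annotated gene start in bases (horizontal axis). DIC2 has 3 CGCG matches, SZF1 and CZF1 have a doubled W-box near the start, ZAT10 and ZAT6 have 1 DRE core each, and CAF1a, CAF1b and BAP1 have no match.

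MYB15, an R2R3 MYB factor that represses CBF genes and activates lignin genes in immunity, was the lowest of the 9 in both genotypes. It had 0.159 FPKM in camta1/2/3/sid2 and 0.351 FPKM in the wild type. The plain ratio was 2.22-fold lower in the mutant, but both values were under 1 FPKM and the log2 ratio was -0.22. Without library values or depth, a difference at this level cannot be judged. MYB13 (AT1G06180), a relative of the same subgroup, had 5.84 FPKM in the mutant and 5.38 in the wild type, and MYB14 (AT2G31180) had 0.273 and 0.367 in that order. The 5 lignin genes of the list lay within a log2 ratio of -0.05 to 0.19, PAL1 (AT2G37040) having the highest, at 35.5 FPKM in the mutant and 31.0 in the wild type. ICE1 (AT3G26744), an activator of CBF3, had 25.1 FPKM in the mutant and 24.3 in the wild type.

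Other genes of the burst had a higher value in the mutant more often than analysed loci did, with single genes far out on both sides. Of 32 listed rapid stress and touch genes outside the set, 28 were analysed: 20 had the higher value in the mutant and 8 in the wild type. Their median log2 ratio was 0.11, against -0.06 over all analysed loci, of which 35.4% were higher in the mutant. The list was chosen with earlier results of these data known, so this lean describes it and was not tested. The touch genes lay at both ends. TCH3 (AT2G41100), a calmodulin-like protein, had 77.9 FPKM in the mutant and 29.2 in the wild type and was the gene of the list at least 2-fold higher on the log2(FPKM + 1) scale, with a log2 ratio of 1.38. TCH2 (AT5G37770), another calmodulin-like protein, had 9.41 FPKM in the mutant and 24.3 in the wild type and was the gene at least 2-fold lower on that scale, with a log2 ratio of -1.28. TCH4 (AT5G57560), a wall-modifying enzyme, had 3.10 FPKM in the mutant and 6.98 in the wild type, 2.25-fold lower in plain FPKM with a log2 ratio of -0.96. Among ethylene-response factors, ERF105 (AT5G51190) had 3.47 FPKM in the mutant and 1.53 in the wild type, 2.26-fold higher in plain FPKM with a log2 ratio of 0.82. ERF6 (AT4G17490) had 3.22 FPKM in the mutant and 1.69 in the wild type, and ERF104 (AT5G61600) had 5.41 and 2.83 in that order. Others differed less: ERF4 (AT3G15210) had 25.1 FPKM in the mutant and 23.2 in the wild type. ERF13 (AT2G44840) was lower, at 0.965 FPKM in the mutant and 1.14 in the wild type. Outside that family, SIB1 (AT3G56710) was lower, at 34.7 FPKM in the mutant and 56.9 in the wild type, a log2 ratio of -0.70. The immediate early WRKY40 (AT1G80840), at 1.36 FPKM in the mutant and 1.31 in the wild type, was close to equal.

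**Figure D4:**
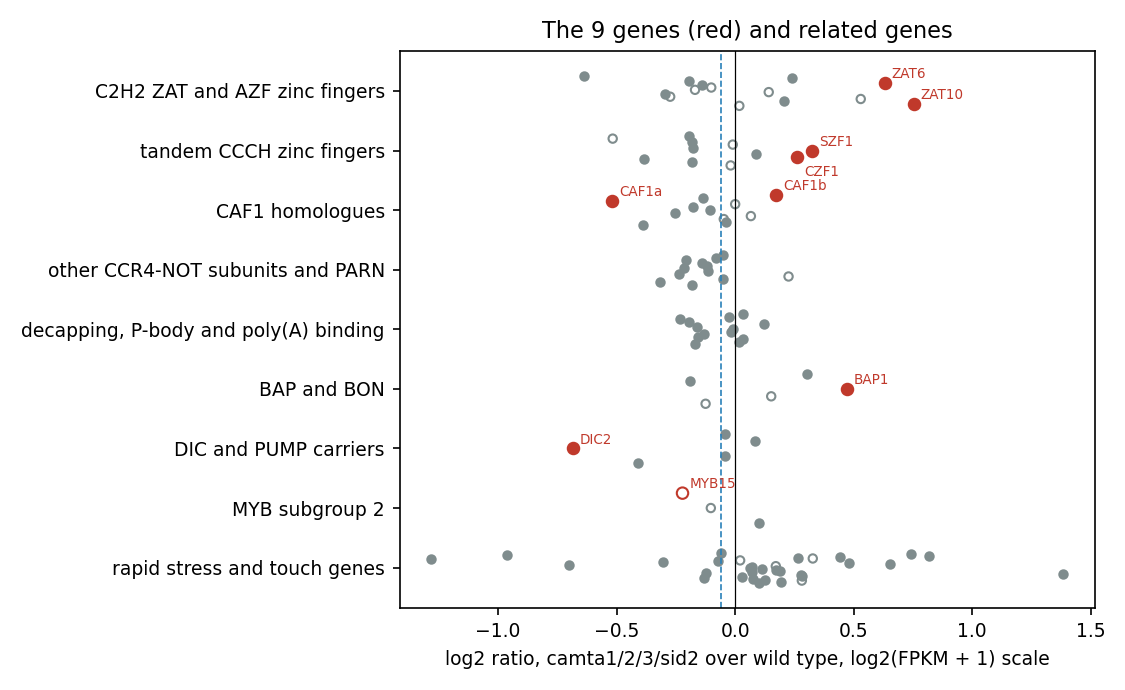
Log2 ratio (horizontal axis, camta1/2/3/sid2 over wild type, log2(FPKM + 1) scale) of the 9 genes (red, named) and their relatives and companions (grey), 1 row per list, with open circles for loci under 1 FPKM in both genotypes and a blue dashed line at the median of analysed loci, -0.06. ZAT10 and ZAT6 lie at the right end of their family, and CAF1a and CAF1b lie at opposite ends of theirs among analysed genes.

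In RefSeq, 5 of the 9 genes have a single exon (ZAT10, ZAT6, CAF1a, CAF1b and DIC2), SZF1, CZF1 and BAP1 have 2 and MYB15 has 3, and no annotated gene overlaps any of them on either strand. Spliced lengths ran from 1192 bases for DIC2 to 2463 for CZF1. The longest run of bases that any of the 9 transcripts shares with another gene was between 25 bases for BAP1 and 36 for SZF1 and CZF1. Neighbouring genes gave no common picture. The gene 6810 bases upstream of SZF1, JRG21 (AT3G55970), had 7.51 FPKM in the mutant and 3.56 in the wild type. ESK1 (AT3G55990), 1223 bases downstream of SZF1 on the same strand, had 3.49 and 5.0 in that order. The gene 51 bases downstream of CAF1b on the opposite strand, OFP10 (AT5G22240), had 0.960 FPKM in the mutant and 1.87 in the wild type. Strandedness is not stated, so reads running past either end could not be told apart.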

How the data were processed

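The deposited table holds FPKM values made by the authors, 1 per genotype and locus, per the file headers. TopHat 1.4.1, Cufflinks 2.1.1, Cuffdiff and the build TAIR10 are named per the submitters' processing notes. How the 3 libraries of a genotype were combined, read length, strandedness, multi-mapped reads and depth are not stated in these sources. Since FPKM is no count, no count model was used, and 1 value per genotype allows no test. The log2 ratio is log2((mutant FPKM + 1)/(wild-type FPKM + 1)), and the pseudocount understates differences of low genes. Loci with at least 1 FPKM in either genotype (18547) formed the background. The members and companion lists were chosen with earlier results of these data known. Named genes are the 9 members, the targeted genes, fixed tissue markers, and a fixed set of paralogues with the CBF genes and ICE1. List genes past 2-fold are also named, as are some, not all, of those among the 4 highest absolute log2 ratios of their list. PUMP2 was named outside these rules. NOT1, ERF4, ERF6, ERF13, ERF104, SIB1, WRKY40, JRG21, ESK1 and OFP10 were named after their values were seen. So were the loci AT4G24565, AT1G63660, AT2G42780, AT5G65180, AT5G65490 and AT5G65495. Gene models and sequence came from RefSeq's TAIR10.1, matched by locus identifier for 32813 of 33557 loci (97.8%). The table has no coordinates, so none were carried between builds, and printed coordinates are TAIR10.1. Coding sequences were aligned globally (match 1, mismatch -1, gap -5 and -0.5). Protein sequences were not analysed here. Python 3.11.15, numpy 2.4.6, pandas 2.3.3, Biopython 1.88 and matplotlib 3.10.9 were used. The fold rule was tested on simulated data, with differences past 2-fold planted only at loci of at least 5 FPKM in the wild type. That simulation does not cover smaller differences or lower levels, such as those of most of the 9 genes.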

Additional observations from a re-analysis of the deposited data

How the results depend on the processing

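No paired analysis was possible because the table has 1 column per genotype and carries no replicate numbers, and for the same reason no library could be left out. The settings tried were pseudocounts of 0.1 and 0.5, no filter, and a filter of 5 FPKM, which kept 5 of the 9 genes. Further settings were the median of loci set to 0, loci at 0 left out, and protein-coding nuclear loci only. A pseudocount cannot change the sign of a log2 ratio, and the filters change only which loci are kept. The median setting added 0.06 to every log2 ratio, and MYB15, the lower gene nearest 0, stood at -0.22. No setting could therefore change the direction of any of the 9 genes. The side of 2-fold held, except for DIC2 with a pseudocount of 0.1, where its log2 ratio was -1.17. The count of genes at least 2-fold lower was then 1 in place of 0. With that pseudocount BAP1 stood at 0.85, against 0.47. Loci at least 2-fold lower numbered 128, and 205 with a pseudocount of 0.1, 82 without loci at 0 and 85 among protein-coding nuclear loci. Loci at least 2-fold higher numbered 146, and 91 at 5 FPKM or more; the causes were not tested. Setting the median of loci to 0 shifts every log2 ratio by 0.06 and gave medians of 0.04 for decapping genes, 0.02 for DIC and PUMP carriers, 0.06 for the MYB15-linked list and -0.97 for the targeted genes, against -1.03. Without the filter the medians were -0.04 for C2H2 genes, -0.10 for MYB subgroup 2 and -0.03 for ascorbate peroxidase and mitochondrial stress genes, and this last median was also -0.03 at 5 FPKM or more. Depth is unknown, which limits DIC2, BAP1 and MYB15 most.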

Other observations

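The 5 other genes with the doubled W-box TTGACTTTTGACC in their 300 upstream bases were close to equal between genotypes. AT1G63660 had 20.2 FPKM in the mutant and 22.0 in the wild type, and AT2G42780 had 12.3 and 13.3 in that order. AT5G65180 had 5.97 FPKM in the mutant and 5.85 in the wild type. AT5G65490 and AT5G65495 had log2 ratios of -0.07 each. SZF1 and CZF1, at 0.32 and 0.26, had the highest log2 ratios of the 7. The doubled form was read from the windows of SZF1 and CZF1, and both genes were picked with earlier results known. Their place among the 7 therefore tests nothing about the motif. AT5G65490 and AT5G65495 have neighbouring locus numbers on the same chromosome, and whether they share a single match was not tested.

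Genes of mitochondrial and peroxide stress, listed for their links to DIC2 and the zinc fingers, were near their wild-type level. APX1 (AT1G07890), a cytosolic ascorbate peroxidase, had 840 FPKM in the mutant and 807 in the wild type. AOX1A (AT3G22370), the alternative oxidase used as a marker of mitochondrial stress, had 19.1 FPKM in the mutant and 20.8 in the wild type. NDB2 (AT4G05020), an alternative dehydrogenase, had 2.54 FPKM in the mutant and 2.53 in the wild type, and APX2 (AT3G09640) was under 0.1 FPKM in both.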
